A study of Mus musculus with 28 samples.

Results

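Interferon-stimulated genes are the genes that a cell turns on after an interferon has bound its receptor, and 49 of them were examined in tail tendon of mice that overexpress the AP-1 transcription factor Fosl-2. They are widely used members of the interferon response, chosen by name with earlier results of these data known, and each was found by its gene symbol among the 25719 gene identifiers of the count files. Type I interferons bind a receptor whose kinases, Jak1 and Tyk2, phosphorylate transcription factors such as Stat2. With Irf9, Stat2 is part of a complex that binds the interferon-stimulated response element (ISRE) in the promoters of its target genes. Interferon gamma acts through a receptor of its own, and guanylate-binding proteins (GBPs) are among its classical targets. Many of the products block viral replication, sense foreign nucleic acids or feed back on the pathway, and most tissues hold a low basal level of them.

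Bulk RNA-sequencing had been done on tail tendon of 28 mice on the C57BL/6 background, 1 library per mouse. The early phenotype held 7 WT and 8 Fosl-2(Tg) mice of 6 to 8 weeks, all male by the labels. The established phenotype held 6 WT and 7 Fosl-2(Tg) mice older than 14 weeks, with 1 male in each genotype and 11 females in all. Fosl-2(Tg) mice carry the murine Fosl2 gene, inserted at random and driven by the MHC class I promoter H2Kb, so that it is expected in most cell types and not in tendon cells alone, and eGFP is made from the same transcript. WT mice carried no transgene. Stage, age and sex cannot be told apart between the phenotypes, since nearly all established mice were female. Levels are given in CPM, read counts relative to the library total, on 1 scale for all 28 libraries after TMM scaling, which sets a factor per library from the bulk of the genes. Fold changes are log2 values of Fosl-2(Tg) over WT with their standard error (SE), and a gene is called where the false discovery rate (FDR) of edgeR's quasi-likelihood test over all genes tested is at most 0.05.

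Libraries held 9645598 to 66894396 counts. Fosl2 itself ran from 58.8 to 136 CPM in early WT and 63.4 to 156 CPM in early Fosl-2(Tg) mice (log2 fold change 0.20 ± 0.24, FDR 0.918), and from 78.1 to 169 CPM in established WT and 121 to 160.1 CPM in established Fosl-2(Tg) mice (0.38 ± 0.15, FDR 0.141). The transgene was therefore not seen as a called rise of Fosl2 RNA in either stage. The 8 tendon markers (Scx, Tnmd, Mkx, Thbs4, Fmod, Col1a1, Comp and Kera) summed to 122840.0 to 374230.0 CPM in early WT and 176491 to 419907 CPM in early Fosl-2(Tg) mice. Established tendons had sums of 63567 to 132103 CPM in WT and 2744 to 55703 CPM in Fosl-2(Tg) mice, where 3 of the 8 were called lower. Bulk RNA cannot tell fewer cells of a type from less RNA per cell.

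In early tendons nearly all the interferon-stimulated genes lay on the lower side in Fosl-2(Tg) mice, although 1 of them passed the test. Of the 49, 44 had enough counts to be tested at this stage and 43 of these had a negative fold change, from -1.55 (Oasl2) upward, the exception being Tor3a at 0.00 ± 0.11. Their median was -0.65, beside -0.01 over all 15138 genes tested. Oas2 was the 1 member called, lower in Fosl-2(Tg) mice, where 0.0396% of all genes were called at this stage. At an unadjusted p under 0.05, 35 of the 44 were lower in Fosl-2(Tg) tendons by edgeR and none was higher, while 4.1% of all genes were lower by the same criterion. In Oas2 and Oasl2 every Fosl-2(Tg) mouse was below every WT mouse, which held for 0.0462% of all genes. With the replicate number taken as a block, Oasl2 was called as well as Oas2, so that 2 members passed. Same-numbered early mice deviated together in all 7 pairs, but no mouse correlated best with its own number. Whether the numbers mark a pairing is therefore not known.

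In the established phenotype the fold changes of most members lay above 0 or close to it. Of 45 members tested, 33 were positive and 12 negative, and the median was 0.14, beside 0.01 over all genes. Gbp2 and Slfn2 were called, both higher in Fosl-2(Tg) tendons, at a stage where 6.51% of all 15862 genes were called. At an unadjusted p under 0.05, 7 members were higher and 4 lower by edgeR, beside 13.5% and 13.1% of all genes, so that the share of members was near that of all genes. No member was called lower by this fit, and 3 were by DESeq2 (Slfn5, Lgals3bp and Ifit3b). Lgals3bp, a secreted glycoprotein, was also called lower by edgeR with a block for the replicate number (-0.89, FDR 0.0203), with all libraries in 1 fit (-0.72, FDR 0.0222) and without the males (-0.65, FDR 0.0443). Scaled by library totals in place of TMM, the median of all genes moved to 0.33 and that of the members to 0.46, with 40 members positive and 5 negative, so that the side of a member near 0 depended on the scaling. Every member's genotypes overlapped at this stage, where 1.48% of all genes were higher and 2.33% lower without overlap.

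A fit of all 28 libraries tested whether the genotype effect differed between the phenotypes. It did for 17 of 45 members, all of them more positive in the established phenotype, where 7.43% of all 16082 genes were called in either direction and 3.43% in that direction. The median difference was 0.80 on the log2 scale, beside 0.02 over all genes. The 17 were Oas1a, Oas2, Oasl2, Ifih1, Dhx58, Adar, Mx1, Mx2, Gbp2, Gbp3, Gbp7, Trim30a, Slfn2, Slfn8, Parp14, Dtx3l and Ifi35. Of the 44 members tested in both stages, 31 were lower in early and higher in established Fosl-2(Tg) tendons, which is 70.5%, beside 32.6% of all genes tested in both. A further 12 were below WT in both stages (Ifit3, Ifit3b, Oas2, Oasl2, Ddx60, Eif2ak2, Cmpk2, Samd9l, Slfn5, Rtp4, Lgals3bp and Xaf1), and Tor3a was near 0 in both. This comparison uses the same mice as the genotype comparisons of both stages, which share none with each other.

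**Figure D1:**
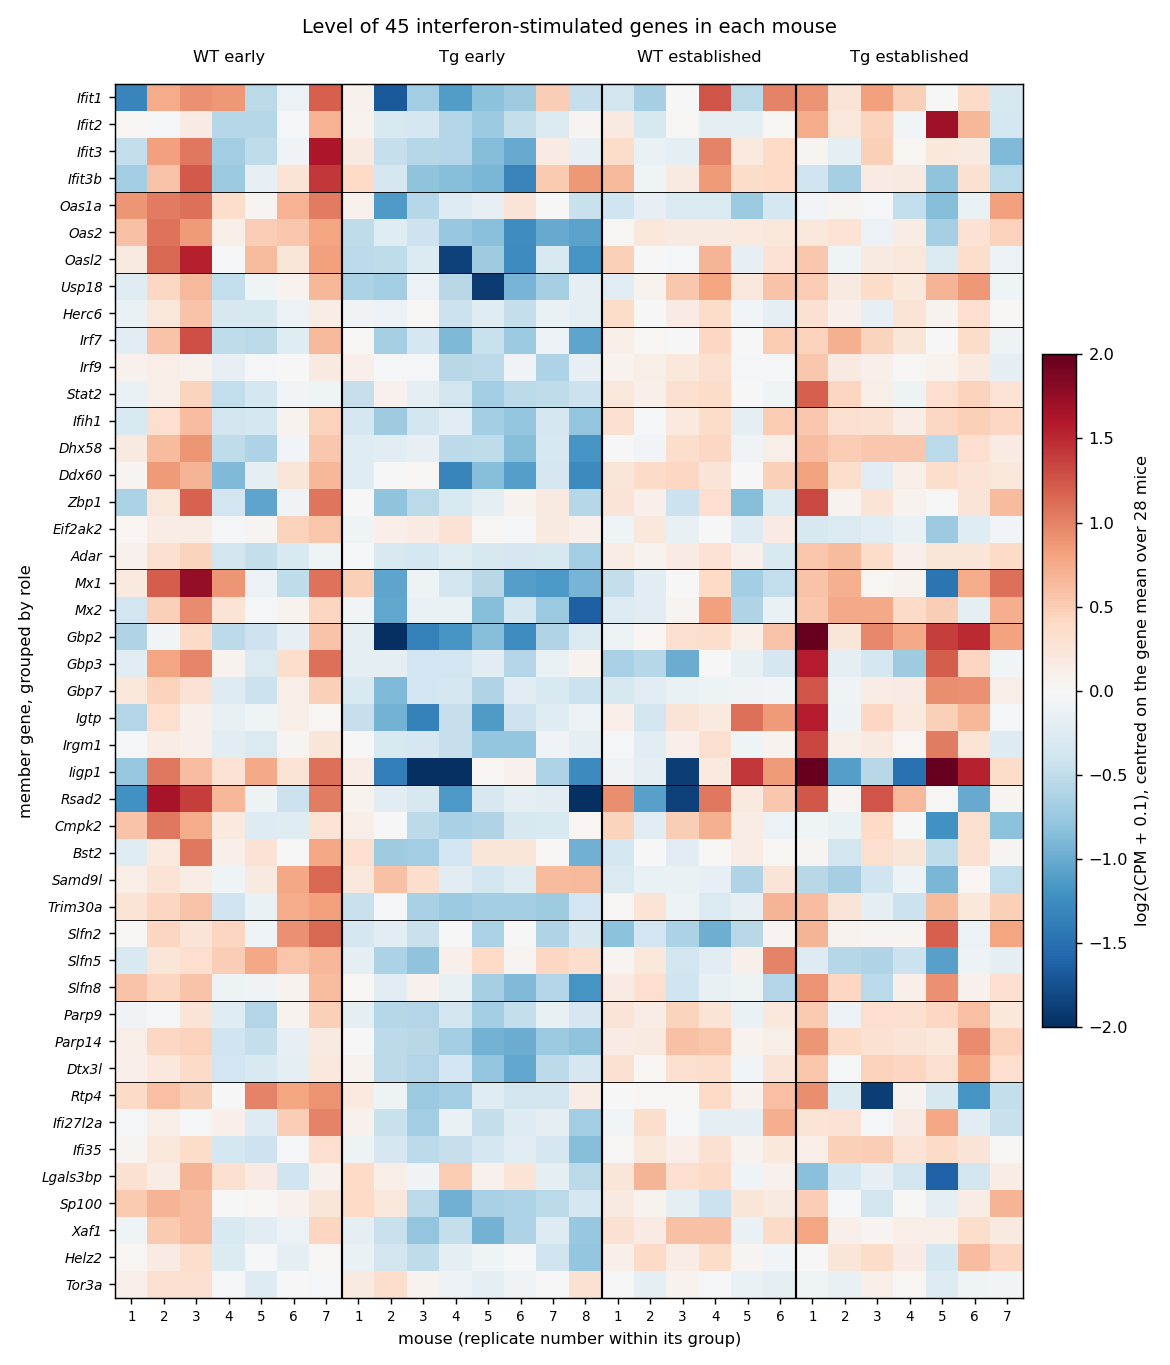
Level of the 45 members with enough counts to be tested over all libraries, as log2(CPM + 0.1) centred on each gene's mean over 28 mice, with 1 column per mouse and rows grouped by role. The 8 early Fosl-2(Tg) columns are the bluest for most rows, 3 of the 7 early WT columns (replicates 2, 3 and 7) are the reddest of their group, and GBP rows are red in established Fosl-2(Tg) replicates 1, 5 and 6.

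**Figure D2:**
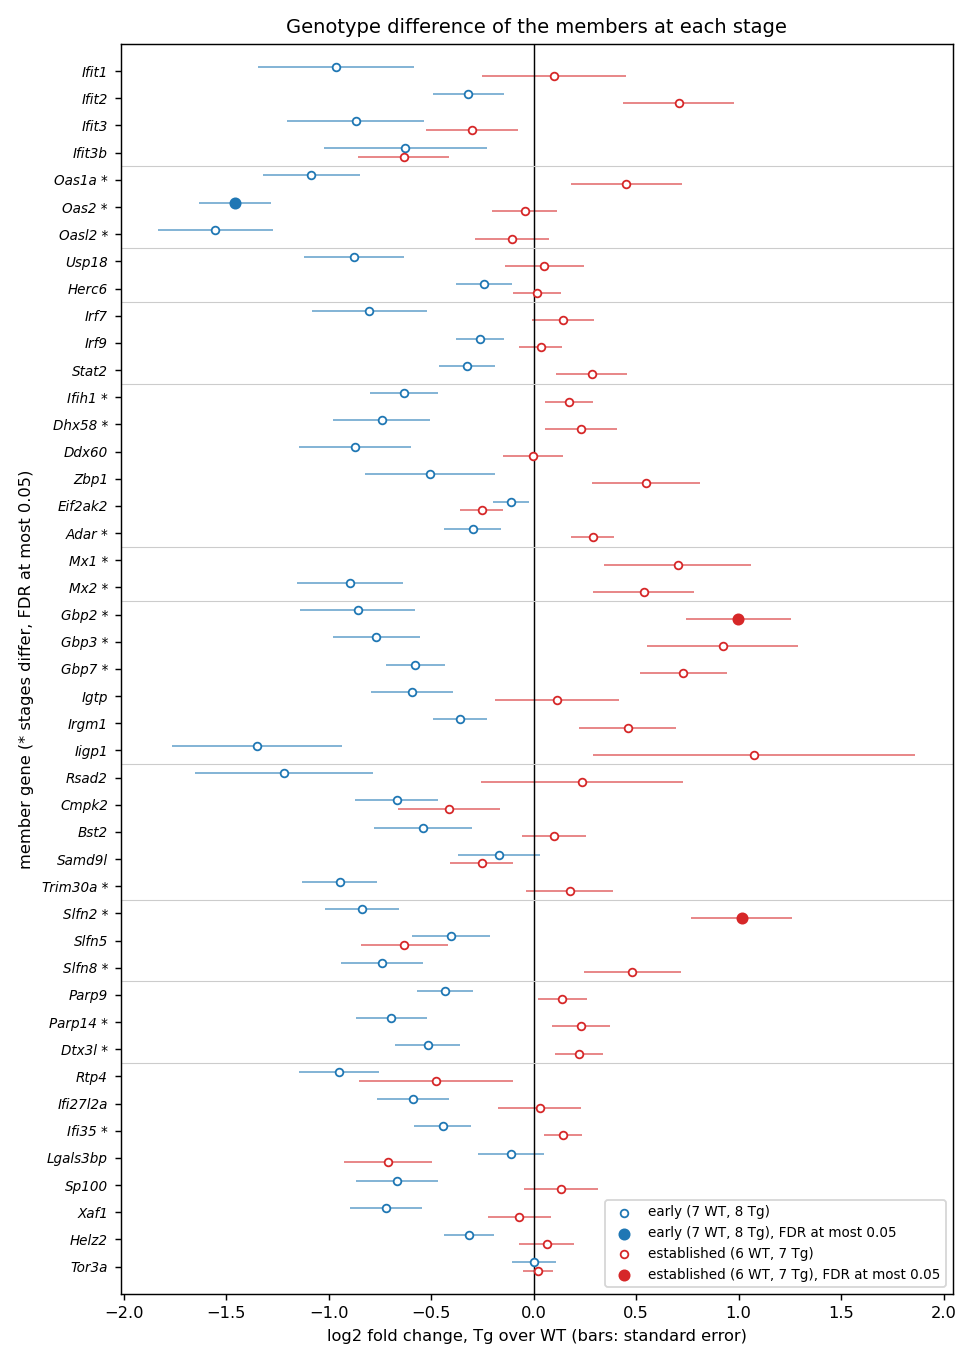
Log2 fold change of Fosl-2(Tg) over WT for each member, with its standard error, in early (blue) and established (red) tendons. Filled points have an FDR of at most 0.05 (Oas2 early, Gbp2 and Slfn2 established), a star marks the 17 members whose effect differed between the stages, and Mx1 has no early point because its counts were too low there.

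The promoters of the members were searched for the element through which interferon acts. Because the members were chosen as interferon-stimulated genes, a high share with this element follows from the choice. It says nothing about the early difference between genotypes. Windows of 300 bases, from 250 before to 50 after the start of transcription, were taken from RefSeq on GRCm38.p6 and held 37 of the 49 members. No window was given for Oas2, Usp18, Dhx58, Zbp1, Mx1, Mx2, Iigp1, Parp9, Parp14, Rtp4, Ifi27l2a and Tor3a. The ISRE core, written GAAANNGAAA or TTTCNNTTTC on the other strand, was found in 20 of the 37 (54.1%), and in 3.99% of all 27025 genes with a window. The GAS element, TTCNNNGAA, through which interferon gamma acts, was in 8 (21.6%), beside 9.55% of all genes, and the AP-1 element TGANTCA, the sequence that Fosl-2 dimers bind, in 9 (24.3%), beside 8.97%. A gene counts as having a motif where any of its windows holds it, no motif contains another, and matches of different motifs were counted where they overlapped. Shown here as examples are 60 bases around the ISRE of 5 of the members whose genotype effect differed between the stages, 5′ to 3′ along the gene's strand with each ISRE in capitals.
Oas1a (chr5:120907511-120907570, minus strand): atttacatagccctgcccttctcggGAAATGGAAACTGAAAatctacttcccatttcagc
Gbp2 (chr3:142620579-142620638, plus strand): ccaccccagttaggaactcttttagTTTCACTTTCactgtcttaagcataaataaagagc
Gbp3 (chr3:142559974-142560033, plus strand): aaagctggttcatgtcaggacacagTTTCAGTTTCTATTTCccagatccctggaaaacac
Gbp7 (chr3:142530258-142530317, plus strand): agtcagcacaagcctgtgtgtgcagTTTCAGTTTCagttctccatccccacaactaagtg
Slfn8 (chr11:83020824-83020883, minus strand): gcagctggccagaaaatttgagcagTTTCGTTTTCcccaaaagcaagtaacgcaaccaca
In Oas1a and Gbp3 the copies overlap into a run of 3 repeats. Both ISRE and AP-1 were found in Ifit3, Ifit3b, Oas3, Gbp2, Irgm1, Rsad2 and Trim30a. Of these 7, Gbp2 (called for the difference) and Rsad2 (not called between genotypes) are printed whole with ISRE and AP-1 letters in capitals, so that the distance between the elements can be read.
Gbp2 (chr3:142620413-142620712, plus strand): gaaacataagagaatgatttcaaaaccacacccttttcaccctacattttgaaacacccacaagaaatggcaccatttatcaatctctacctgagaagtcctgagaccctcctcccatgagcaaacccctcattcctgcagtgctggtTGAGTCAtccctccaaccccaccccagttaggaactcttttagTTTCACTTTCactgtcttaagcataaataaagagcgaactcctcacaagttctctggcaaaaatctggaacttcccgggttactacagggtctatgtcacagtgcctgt
Rsad2 (chr12:26456403-26456702, minus strand): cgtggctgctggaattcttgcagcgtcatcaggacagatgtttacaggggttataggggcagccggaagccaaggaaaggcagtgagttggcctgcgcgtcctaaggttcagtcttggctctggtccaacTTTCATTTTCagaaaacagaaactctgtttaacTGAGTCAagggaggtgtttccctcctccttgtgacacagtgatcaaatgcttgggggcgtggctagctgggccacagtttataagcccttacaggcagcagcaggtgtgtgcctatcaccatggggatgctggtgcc
Of the other members with a window whose effect differed between the stages, Ifih1 and Trim30a held an ISRE, and Oasl2, Adar, Slfn2, Dtx3l and Ifi35 did not hold these letters in theirs. A match is a description of the sequence, and no binding was measured.

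The OAS family, whose oligoadenylate synthetases make the messenger that switches on RNase L, held the most negative fold changes of early Fosl-2(Tg) tendons. Oas2 (chr5:120868398-120887933 on GRCm39) had a lowest, median and highest level of 3.204, 4.46 and 6.34 CPM in early WT and 1.17, 1.64 and 2.45 CPM in early Fosl-2(Tg) mice. The highest Fosl-2(Tg) mouse lay below the lowest WT mouse, and the fitted level was 0.364 of WT (log2 fold change -1.46 ± 0.18, FDR 0.00276). In established mice the levels were 2.98, 3.35 and 3.45 CPM in WT and 1.804, 3.41 and 4.07 CPM in Fosl-2(Tg), with overlapping groups and a fold change of -0.04 ± 0.16 (FDR 0.884). The difference between the stages was 1.41 ± 0.24 (FDR 0.00198). Oas2 was thus lower in Fosl-2(Tg) mice at the early stage, with medians close together later.

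Oasl2 encodes an OAS-like protein that is also induced by interferon. Its levels were 2.54, 4.05 and 7.74 CPM in early WT and 0.632, 1.65 and 2.11 CPM in early Fosl-2(Tg) mice, again without overlap, and the fold change of -1.55 ± 0.28 had an FDR of 0.0687. Later it ran from 2.27 to 4.199 CPM in WT and 2.09 to 3.79 CPM in Fosl-2(Tg) mice (-0.11 ± 0.18), and the stages differed by 1.44 ± 0.35 (FDR 0.0149). Oas1a was low in all groups, with 0.636, 1.199 and 1.41 CPM in early WT and 0.223, 0.511 and 0.747 CPM in early Fosl-2(Tg) mice (-1.08 ± 0.24, FDR 0.2103). Its established levels of 0.3205, 0.462 and 0.526 CPM in WT and 0.289, 0.578 and 1.14 CPM in Fosl-2(Tg) gave 0.45 ± 0.27, and the difference between stages was 1.54 ± 0.36 (FDR 0.0124). In Oas1a it was WT that was lower in the established phenotype (-1.30 ± 0.26, FDR 0.00374), while Fosl-2(Tg) mice differed by 0.24 (FDR 0.445). The OAS genes share sequence, so that reads may be divided between them. Oas3 and Oasl1, with 150 and 154 counts over all libraries, were too low for the edgeR test with its filter. DESeq2, run without that filter, called Oas3 higher in established Fosl-2(Tg) mice (1.94 ± 0.57, FDR 0.0107) and for the difference (2.84 ± 0.77, FDR 0.00774), and edgeR without a filter called it for the difference (2.75 ± 0.65, FDR 0.0184).

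The GBP and IRG families, large and immunity-related GTPases that act on the membranes around intracellular pathogens, had fold changes of opposite sign in the early and the established phenotype. All 6 had an unadjusted p under 0.05 and were lower in early Fosl-2(Tg) tendons, and all 6 were on the positive side in established ones. In the established phenotype, only Fosl-2(Tg) replicates 1, 5 and 6 had a mean over the 6 above all WT mice. Gbp2 (chr3:142326349-142343779 on GRCm39) had 2.46, 3.38 and 5.698 CPM in early WT and 0.556, 1.84 and 3.33 CPM in early Fosl-2(Tg) mice (-0.86 ± 0.28, FDR 0.647), with overlap between the groups. In the established phenotype WT mice had 3.52, 4.45 and 5.695 CPM and Fosl-2(Tg) mice 4.5, 7.49 and 16.5 CPM, so that 6 of the 7 Fosl-2(Tg) mice were above all WT mice. The established fold change was 1.00 ± 0.26 (FDR 0.0373), a level 1.998 times that of WT, and the stages differed by 1.86 ± 0.40 (FDR 0.00793). The established call was lost when any of the 6 WT mice or Fosl-2(Tg) replicate 1, 5 or 6 was left out, without both males and with the replicate block, with an FDR of at most 0.0931 over all alternatives.

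Gbp7 and Gbp3 lie beside Gbp2 in a cluster on chromosome 3 (chr3:142236044-142255910 and chr3:142265731-142278979 on GRCm39) and share sequence with it. Gbp7 had 5.84, 9.12 and 10.9 CPM in early WT and 4.23, 6.102 and 6.73 CPM in early Fosl-2(Tg) mice (-0.58 ± 0.14, FDR 0.434). Its established levels were 6.28, 7.28 and 7.57 CPM in WT and 7.48, 8.81 and 19.02 CPM in Fosl-2(Tg) mice, overlapping only at the lowest Fosl-2(Tg) mouse (0.73 ± 0.21, FDR 0.0543). The stages differed by 1.3 ± 0.25 (FDR 0.00498). Gbp3 gave -0.77 ± 0.21 early and 0.92 ± 0.37 in the established phenotype, where 1 Fosl-2(Tg) mouse reached 8.48 CPM against a Fosl-2(Tg) median of 2.66 CPM and a WT range of 1.34 to 2.75 CPM. Its difference between stages was 1.68 ± 0.42 (FDR 0.0194). All 3 GBPs were therefore called for a difference between the stages.

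Among the IRG proteins, Irgm1, which regulates the other IRG GTPases, had 9.13, 11.7 and 13.3 CPM in early WT and 6.49, 8.95 and 11.3 CPM in early Fosl-2(Tg) mice (-0.36 ± 0.13, FDR 0.725). Established WT mice had 9.66, 11.4 and 14.1 CPM and Fosl-2(Tg) mice 9.32, 12.7 and 28.5 CPM (0.46 ± 0.24, FDR 0.231), and the stages differed by 0.81 ± 0.27 (FDR 0.0593), short of a call. Iigp1 spread most: it ran from 0.1301 to 2.16 CPM in established WT and 0.201 to 7.45 CPM in established Fosl-2(Tg) mice, and its fold changes of -1.35 ± 0.41 early and 1.08 ± 0.78 later had the largest established standard error of the members. Igtp was at -0.59 ± 0.20 early and 0.11 ± 0.30 in the established phenotype, neither called.

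**Figure D3:**
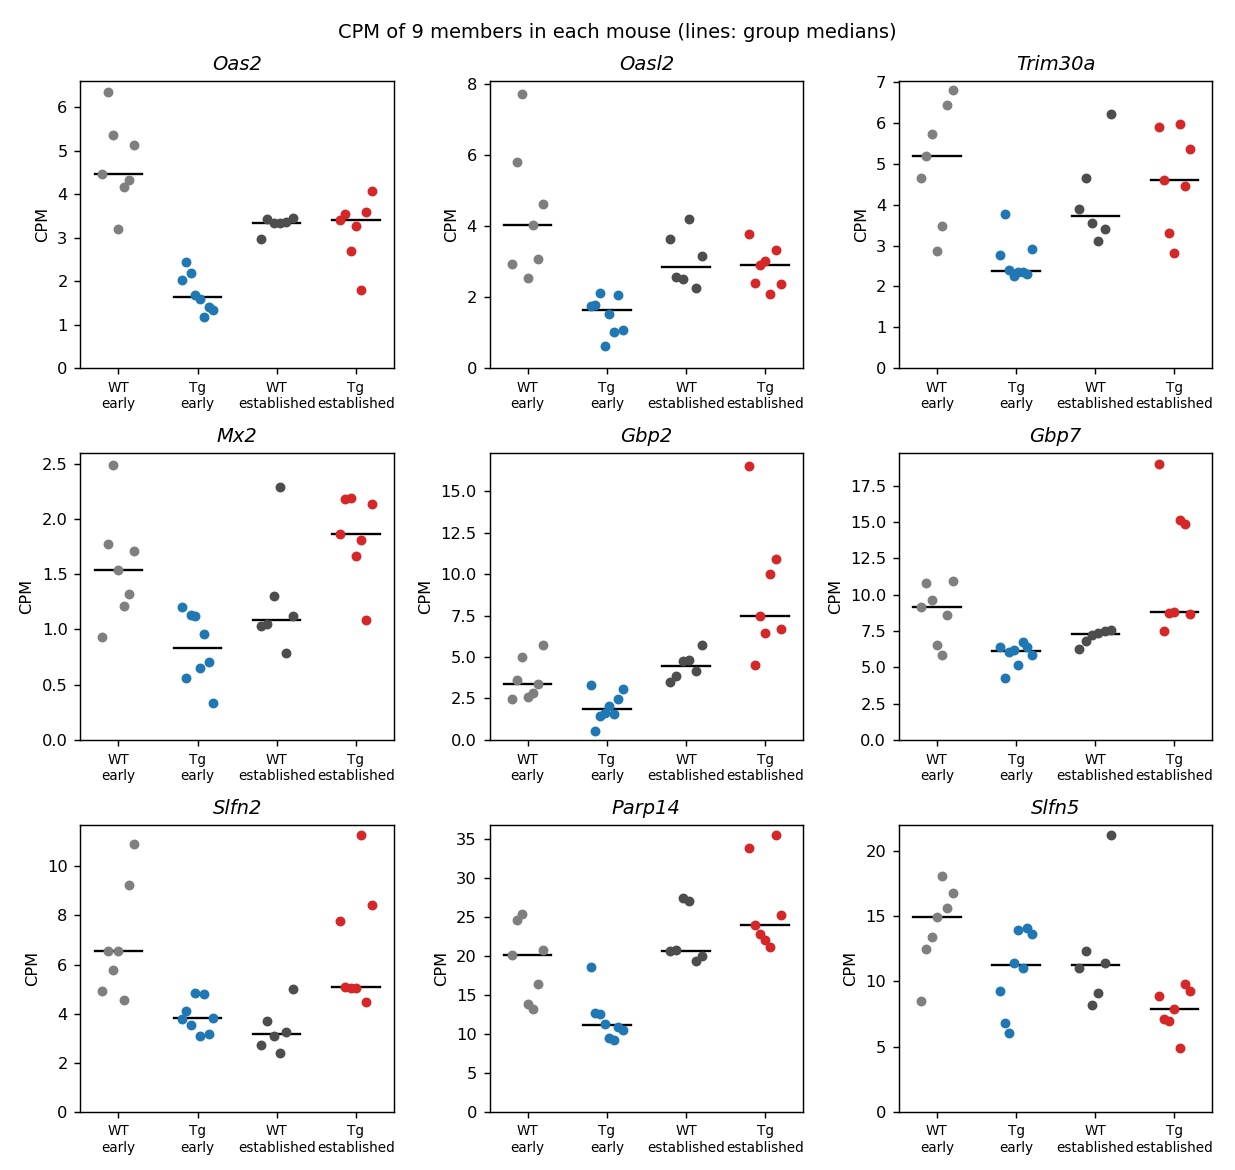
CPM of 9 members in each of the 28 mice by genotype and stage, with the group median as a line and every axis starting at 0. Oas2 and Oasl2 separate the genotypes in early tendons and overlap later, Gbp2, Gbp7 and Slfn2 are higher in most established Fosl-2(Tg) mice, and Slfn5 is below WT at both stages by its medians.

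The Schlafen genes, a family of growth and RNA regulators induced by interferon, differed among themselves. Slfn2 (chr11:82955609-82961504 on GRCm39), which maintains quiescence in T cells, had 4.57, 6.54 and 10.9 CPM in early WT and 3.07, 3.82 and 4.85 CPM in early Fosl-2(Tg) mice (-0.84 ± 0.18, FDR 0.2103). In the established phenotype the order was the opposite, with 2.41, 3.17 and 5.02 CPM in WT and 4.47, 5.09 and 11.3 CPM in Fosl-2(Tg) mice (1.01 ± 0.25, FDR 0.0307), and the ranges overlapped at 1 WT and 1 Fosl-2(Tg) mouse. The stages differed by 1.85 ± 0.31 (FDR 0.00198), and both genotypes differed between the stages: WT was lower in the established than in the early phenotype (-1.06 ± 0.23, FDR 0.00669) and Fosl-2(Tg) was higher (0.78 ± 0.21, FDR 0.00318). The established call did not hold when WT replicate 1, 2, 3, 4 or 5 or Fosl-2(Tg) replicate 1 was left out, without both males or with the replicate block (highest FDR over all alternatives 0.0698).

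Slfn8 had 3.27, 4.78 and 5.45 CPM in early WT, 1.502, 2.66 and 3.76 CPM in early Fosl-2(Tg), 2.32, 3.23 and 4.46 CPM in established WT and 2.39, 4.45 and 6.71 CPM in established Fosl-2(Tg) mice. Its fold changes were -0.74 ± 0.20 early and 0.48 ± 0.24 later, with a difference of 1.21 ± 0.31 (FDR 0.0214). Slfn5, the family member with the most counts, lay on the lower side at both stages. It had 8.52, 14.95 and 18.1 CPM in early WT and 6.02, 11.2 and 14.1 CPM in early Fosl-2(Tg) mice (-0.40 ± 0.19, FDR 0.828), and 8.15, 11.2 and 21.2 CPM in established WT and 4.91, 7.86 and 9.81 CPM in established Fosl-2(Tg) mice (-0.63 ± 0.21, FDR 0.0869). Its difference between stages, -0.23 ± 0.30 (FDR 0.664), was not called.

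The MX proteins are dynamin-like GTPases that trap viral particles, and C57BL/6 mice are known for a defective Mx1 gene. Mx2 had 0.932, 1.54 and 2.49 CPM in early WT and 0.334, 0.832 and 1.203 CPM in early Fosl-2(Tg) mice (-0.90 ± 0.26, FDR 0.535), and 0.787, 1.09 and 2.29 CPM in established WT and 1.08, 1.86 and 2.19 CPM in established Fosl-2(Tg) mice (0.54 ± 0.25, FDR 0.182). Both pairs of groups overlapped, and the stages differed by 1.43 ± 0.36 (FDR 0.0194). Mx1 was too low for a test in the early libraries alone, with 143 counts over the 7 WT and 41 over the 8 Fosl-2(Tg) mice. Its levels were 0.3699, 1.13 and 2.16 CPM in early WT and 0.201, 0.302 and 0.833 CPM in early Fosl-2(Tg), and 0.3205, 0.425 and 0.781 CPM in established WT and 0.144, 0.899 and 1.33 CPM in established Fosl-2(Tg) mice (0.70 ± 0.36, FDR 0.226). The difference between stages was 2.23 ± 0.56 (FDR 0.0193).

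Among sensors of nucleic acids and RNA editors, Ifih1 (MDA5, a sensor of long double-stranded RNA) had 7.61, 10.4 and 15.2 CPM in early WT and 5.66, 6.91 and 8.43 CPM in early Fosl-2(Tg) mice (-0.63 ± 0.17, FDR 0.442). Established mice had 8.68, 11.9 and 14.01 CPM (WT) and 10.9, 13.2 and 14.5 CPM (Fosl-2(Tg)), close together (0.17 ± 0.12, FDR 0.3497), and the stages differed by 0.80 ± 0.21 (FDR 0.0232). Dhx58 (LGP2), which modulates that sensor, had 1.91, 3.396 and 5.57 CPM in early WT and 1.25, 2.21 and 2.63 CPM in early Fosl-2(Tg) mice (-0.74 ± 0.24, FDR 0.624). Later it had 2.83, 3.101 and 3.99 CPM in established WT and 2.02, 4.29 and 4.63 CPM in established Fosl-2(Tg) mice (0.23 ± 0.18, FDR 0.413), with a difference between stages of 0.97 ± 0.30 (FDR 0.0491). Both genes were lower than WT only in the early medians.

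Adar, which deaminates adenosine in double-stranded RNA and so keeps it from being sensed, had the smallest difference between stages of the members called for it. It had 19.9, 26.03 and 37.7 CPM in early WT and 17.2, 22.2 and 27.3 CPM in early Fosl-2(Tg) mice (-0.30 ± 0.14, FDR 0.818). Established WT and Fosl-2(Tg) mice had 22.5, 30.3 and 33.9 CPM in established WT and 29.97, 35.8 and 42.99 CPM in established Fosl-2(Tg) mice (0.29 ± 0.10, FDR 0.102), and the stages differed by 0.58 ± 0.18 (FDR 0.04603). The calls of Dhx58 and of Adar were near the threshold, and each was lost in 18 of the 28 fits that left out a mouse. Eif2ak2 (PKR), the kinase that halts translation on double-stranded RNA, was closer to 0, with -0.11 ± 0.09 early and -0.25 ± 0.11 later. Ddx60 (-0.87 ± 0.27 early, close to 0 later) and the Z-nucleic acid sensor Zbp1 (-0.51 ± 0.32 and 0.55 ± 0.26) were not called between genotypes or for the difference by the main fits. With library totals in place of TMM both were called for the difference by edgeR (FDR 0.00421 and 0.00907).

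Parp9 and Dtx3l form a ubiquitin ligase complex and Parp14 is an ADP-ribosyltransferase, and all 3 lie together on chromosome 16. Parp14 (chr16:35653231-35692003 on GRCm39) had 13.1, 20.1 and 25.3 CPM in early WT and 9.18, 11.1 and 18.5 CPM in early Fosl-2(Tg) mice (-0.69 ± 0.17, FDR 0.434), with 19.3, 20.6 and 27.4 CPM in established WT and 21.1, 23.9 and 35.5 CPM in established Fosl-2(Tg) mice (0.23 ± 0.14, FDR 0.313). Its stages differed by 0.92 ± 0.23 (FDR 0.0199). Dtx3l had 10.9, 15.3 and 18.6 CPM in early WT and 6.94, 9.896 and 15.1 CPM in early Fosl-2(Tg) mice and 13.8, 17.4 and 18.2 CPM in established WT and 14.03, 19.2 and 25.1 CPM in established Fosl-2(Tg) mice. This gave -0.52 ± 0.16 early (FDR 0.624), 0.22 ± 0.12 later (FDR 0.247) and a difference of 0.74 ± 0.20 (FDR 0.0296). Parp9, which overlaps Dtx3l on the opposite strand so that unstranded reads could be counted to either, was at -0.43 ± 0.14 and 0.14 ± 0.12.

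Trim30a, an interferon-induced ubiquitin ligase that restrains NF-kB signalling, stood out among the other antiviral effectors. Early WT mice had 2.87, 5.2 and 6.802 CPM and early Fosl-2(Tg) mice 2.25, 2.38 and 3.78 CPM, with 1 Fosl-2(Tg) mouse apart from the other 7 (-0.95 ± 0.18, FDR 0.1098). The established groups overlapped throughout, with 3.12, 3.73 and 6.22 CPM in WT and 2.82, 4.61 and 5.99 CPM in Fosl-2(Tg) (0.18 ± 0.21), and the stages differed by 1.11 ± 0.28 (FDR 0.0194). Samd9l, a translation repressor and the effector with the most counts, had 79.3, 95.6 and 188 CPM in early WT and 65.2, 103 and 133 CPM in early Fosl-2(Tg) mice (-0.17 ± 0.20, FDR 0.918). Its established levels were 55.8, 76.2 and 101 CPM in established WT and 44.9, 59.7 and 86.6 CPM in established Fosl-2(Tg) mice (-0.25 ± 0.16, FDR 0.308). Rsad2 (viperin) and its neighbour Cmpk2, which supplies viperin's substrate, were at -1.22 ± 0.43 and -0.67 ± 0.20 early and 0.23 ± 0.49 and -0.41 ± 0.25 later. Bst2 (tetherin) was at -0.54 ± 0.24 and 0.10 ± 0.16. None of these 3 was called between genotypes or for the difference by the main fits.

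The IFIT proteins, which bind viral RNA and block its translation, were all on the lower side early. Ifit2, with the most counts of the family, had 17.5, 25.5 and 42.5 CPM in early WT and 15.6, 20.9 and 27.4 CPM in early Fosl-2(Tg) mice (-0.32 ± 0.17, FDR 0.834). Later it had 20.9, 24.6 and 29.7 CPM in WT and 20.4, 36.1 and 85.1 CPM in Fosl-2(Tg) mice (0.71 ± 0.27, FDR 0.117), and the difference of 1.02 ± 0.32 just missed the threshold (FDR 0.0513). The highest value came from Fosl-2(Tg) replicate 5. Ifit1 was at -0.96 ± 0.38 early and 0.10 ± 0.35 later. Ifit3 and Ifit3b are near-identical copies whose reads may have been divided between them or dropped, and were at -0.87 ± 0.33 and -0.62 ± 0.40 early and -0.30 ± 0.22 and -0.63 ± 0.22 later.

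Isg15, the ubiquitin-like protein that is joined to other proteins, was barely detected, with 117 counts over all 28 libraries, and was not tested. Herc6, the ligase that attaches it in mice, had 8.38, 9.69 and 15.6 CPM in early WT and 7.53, 9.36 and 10.7 CPM in early Fosl-2(Tg) mice (-0.24 ± 0.14, FDR 0.841) and 9.14, 11.2 and 13.6 CPM in established WT and 9.35, 11.3 and 13.3 CPM in established Fosl-2(Tg) mice (0.02 ± 0.12, FDR 0.938). Usp18, the protease that removes it and dampens the receptor, was at -0.88 ± 0.25 early and 0.05 ± 0.19 later. Of the transcription factors, Stat2 had 15.7, 20.8 and 29.9 CPM in early WT and 13.6, 16.2 and 23.4 CPM in early Fosl-2(Tg) mice (-0.33 ± 0.14, FDR 0.775), and 20.7, 24.7 and 28.3 CPM in established WT and 20.5, 27.9 and 50.8 CPM in established Fosl-2(Tg) mice (0.28 ± 0.17, FDR 0.307), with a difference between stages of 0.60 ± 0.22 (FDR 0.0919). Its partner Irf9 was at -0.26 ± 0.12 and 0.03 ± 0.10, and Irf7, the factor that drives further type I interferon genes, at -0.80 ± 0.28 and 0.14 ± 0.15. None of these passed a test between genotypes by the main fits.

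Ifi35 was the 1 member with a called difference among the remaining interferon-induced genes. It had 7.804, 10.9 and 13.5 CPM in early WT and 5.76, 8.23 and 9.71 CPM in early Fosl-2(Tg) mice (-0.44 ± 0.14, FDR 0.624) and 10.7, 11.8 and 12.99 CPM in established WT and 10.7, 12.7 and 14.7 CPM in established Fosl-2(Tg) mice (0.14 ± 0.09, FDR 0.3301), and the stages differed by 0.58 ± 0.17 (FDR 0.0361). Tor3a, a torsin-like ATPase and the gene of this group with the most counts, had similar medians in the 4 groups: 21.9, 25.9 and 32.9 CPM in early WT, 22.8, 26.7 and 33.4 CPM in early Fosl-2(Tg), 23.1, 24.7 and 27.5 CPM in established WT and 21.9, 24.8 and 28.9 CPM in established Fosl-2(Tg) mice. Its fold changes were 0.00 ± 0.11 and 0.02 ± 0.07 (FDR 0.998 and 0.882). The other tested genes of the group (Rtp4, Ifi27l2a, Lgals3bp, Sp100, Xaf1 and Helz2) ran from -0.95 ± 0.19 (Rtp4) to -0.11 ± 0.16 (Lgals3bp) early. Later they ran from -0.71 ± 0.22 (Lgals3bp) to 0.13 ± 0.18 (Sp100). Ifi44 was too low to be tested.

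Comparing the stages within each genotype shows in which mice the levels differed. In WT mice, 17 of 45 members were on the higher and 28 on the lower side in the established phenotype, with a median of -0.13, and 2 (Oas1a and Slfn2, both lower) were called, beside 5.81% of all genes. In Fosl-2(Tg) mice, 39 were on the higher and 6 on the lower side, the median was 0.79, and 35 were called, 32 of them higher in the established phenotype. Among all genes 47.8% were called in this comparison and 25.8% were called higher, and the median over all genes was 0.03. Gbp2 had the smallest FDR of the members (2.13 ± 0.28, FDR 1.18e-06), and Iigp1 the largest rise (2.20 ± 0.66, FDR 0.00741). Parp14 (1.15 ± 0.16, FDR 2.90e-06), Ifih1 (0.90 ± 0.14, FDR 1.61e-05) and Oas2 (0.91 ± 0.17, FDR 8.12e-05) rose as well. The called members that fell were Samd9l (-0.67 ± 0.19), Lgals3bp (-0.53 ± 0.19) and Eif2ak2 (-0.37 ± 0.10). These 3 depended on the scaling: with library totals in place of TMM, 41 members were called, all higher, with Eif2ak2 among them and Samd9l and Lgals3bp not called. The number of all genes called with library totals is not set beside this count, which therefore does not describe the members alone. On which side the WT members near 0 lie with library totals was not examined. These comparisons share their samples with those between genotypes, and stage, age and sex cannot be told apart in them.

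How far the members varied together from mouse to mouse was described by the mean of their log2 CPM in each library. Early WT mice had means of 2.45, 3.01, 3.16, 2.40, 2.38, 2.62 and 3.14 (replicates 1 to 7), so that replicates 2, 3 and 7 stood above 3 and the other 4 between 2.38 and 2.62. In replicates 2, 3 and 7 the tendon markers summed to 152147, 132753 and 132699 CPM. In replicates 1, 4, 5 and 6 they summed to 233536, 308681, 374230 and 122840 CPM. The part of tissue content in these levels was not tested. The means of early Fosl-2(Tg) mice were 2.47, 2.06, 2.06, 1.98, 1.98, 2.01, 2.24 and 2.00 (replicates 1 to 8). The highest, replicate 1, reached the lower WT mice, and the other 7 Fosl-2(Tg) mice were below all WT mice. Established WT mice ran from 2.47 to 2.79 and established Fosl-2(Tg) mice from 2.58 to 3.12, with overlap. From lowest to highest mouse the mean spanned 1.71-fold in early WT, 1.41-fold in early Fosl-2(Tg), 1.24-fold in established WT and 1.45-fold in established Fosl-2(Tg) mice.

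Some mice were high or low in many members at once, while others were near the middle of their group. In early WT replicates 2, 3 and 7, 37, 39 and 39 of the 45 members lay above the group mean, whereas 6 and 3 did in replicates 4 and 5. Fosl-2(Tg) replicate 1 had 41 of 45 above its group mean in the early and 38 in the established phenotype (different mice). After centring on the group means, the first component held 44.01% of the members' variance in early mice, beside 39.9% for all 16082 genes, and all 45 members had the same sign on it. The largest weights were those of Rsad2, Ifit3, Ifit3b and Ifit1. In established mice the first component held 40.6%, beside 47.2% for all genes, and only 30 members shared a sign. There the weight lay mostly on Iigp1 (0.72), which had 674 counts over all libraries. Gbp3 (0.32), Igtp (0.21), Gbp2 (0.19), Irgm1 (0.18) and Gbp7 (0.17) came next, and with Iigp1 these are the 6 GBP and IRG members. The members shared library and depth, and no test was made of their co-variation.

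The GBP and IRG members divided the established Fosl-2(Tg) mice. Their mean log2 CPM was 3.68, 3.02 and 2.73 in replicates 1, 5 and 6 and between 1.66 and 2.00 in the other 4, while WT mice ran from 1.45 to 2.24. Replicates 1, 5 and 6 thus lay above all WT mice, and replicate 5 is the male of the group. These 3 were also the shallowest of the established libraries, with 10750350, 9664327 and 11560533 counts beside 16638405 to 34236725 in the other 4 Fosl-2(Tg) mice. Their tendon markers summed to 10028, 2744 and 46640 CPM, beside 21116 to 55703 CPM in the other 4. The part of depth, sex and tissue content in this split was not tested. The OAS members of the same 3 mice were at 1.06, 0.21 and 0.99, beside 0.58 to 1.02 in WT, so that replicate 5 combined the second highest GBP and IRG mean with the lowest OAS mean of the established mice.

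**Figure D4:**
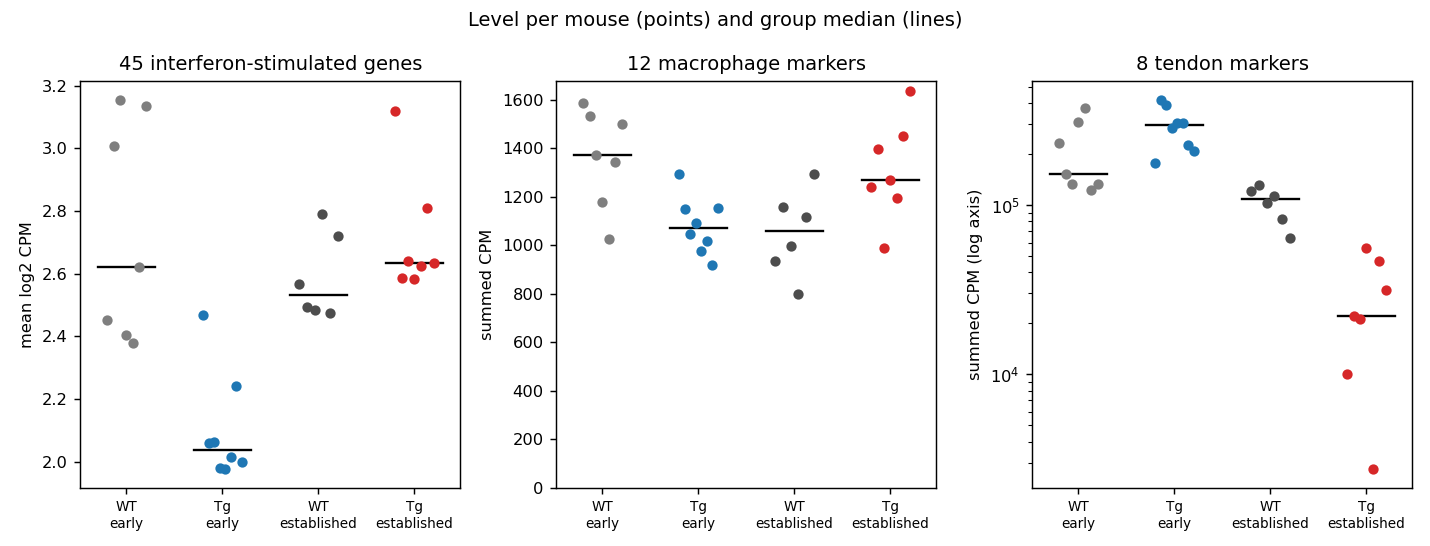
Mean log2 CPM of 45 interferon-stimulated genes (left), summed CPM of 12 macrophage markers (middle) and of 8 tendon markers (right, log axis) in each mouse, with group medians as lines. Early Fosl-2(Tg) mice lie lowest for the interferon-stimulated genes and established Fosl-2(Tg) mice lowest for the tendon markers, and the macrophage sums overlap between genotypes at both stages.

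Macrophage markers lay on the same sides of WT as the members. Of 12 markers, 11 had a negative early fold change (median -0.41, 8 with an unadjusted p under 0.05 and none called), and 11 were positive in the established phenotype (median 0.22), where Cd163 (1.07 ± 0.14, FDR 0.00465) was called. For the difference between stages all 12 were positive, and Cd163 (1.44 ± 0.18, FDR 6.74e-05), Mrc1 (1.00 ± 0.19, FDR 0.00491) and Adgre1 (0.97 ± 0.23, FDR 0.0132) were called. The summed level was 1026 to 1588 CPM in early WT, 918 to 1292 CPM in early Fosl-2(Tg), 799.7 to 1295 CPM in established WT and 988 to 1635 CPM in established Fosl-2(Tg) mice. Markers of T and NK cells summed to at most 1.89 CPM in any mouse, those of B and plasma cells to at most 1.46 CPM and those of neutrophils to at most 6.63 CPM. No macrophage marker was at 0 in any group. Of the 6 plasmacytoid dendritic cell markers, Siglech was at 0.801 to 1.98 CPM in early WT and 0.2503 to 1.57 CPM in early Fosl-2(Tg) mice, and Bst2 is itself a member. The others did not follow: Ccr9 was at 0.01 ± 0.21 early and called higher later (0.64 ± 0.16, FDR 0.0322), Klk1 was called negative for the difference (-3.43 ± 0.93, FDR 0.0262), Tcf4 was at -0.07 ± 0.11 and -0.09 ± 0.15, and Pacsin1 was too low for a test early and at -0.13 ± 0.37 later. Erythroid markers ran from 8.496 to 33.2 CPM in early WT, 7.79 to 11.3 CPM in early Fosl-2(Tg), 8.94 to 20.1 CPM in established WT and 10.3 to 127 CPM in established Fosl-2(Tg) mice, and 4 of 5 tested (Hba-a1, Hba-a2, Hbb-bs and Hbb-bt) were called positive for the difference, from 3.50 to 5.52. Skeletal muscle markers spread widely within each group (for example 52.4 to 15244 CPM in established WT). The part of these cell types in the levels of the interferon-stimulated genes was not tested.

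The rest of the pathway was read from lists of 113 further genes, whose counts of calls stand beside the 6.51% (established) and 7.43% (difference) of all genes called. The ligands were almost absent: of 21 interferon genes, 7 had no count in any library, Ifnb1 among them, and 18 had under 20 counts in all. Interferon gamma (Ifng) had 31 counts over the 28 libraries. Interferon kappa (Ifnk), which keratinocytes make, was the 1 ligand with enough counts for a test, at 0.534, 1.03 and 1.35 CPM in early WT and 0.417, 0.572 and 1.51 CPM in early Fosl-2(Tg) mice (-0.29 ± 0.30, FDR 0.916) and 0.674, 1.197 and 2.204 CPM in established WT and 1.01, 1.26 and 1.48 CPM in established Fosl-2(Tg) mice (-0.12 ± 0.23, FDR 0.769). No change of a ligand was therefore detectable at this depth.

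Of 6 receptor chains, only Ifngr1, the ligand-binding chain for interferon gamma, was called. It had 39.9, 64.2 and 90.9 CPM in early WT and 40.9, 53 and 74.6 CPM in early Fosl-2(Tg) mice (-0.25 ± 0.15, FDR 0.847), and 48.1, 53.2 and 65.8 CPM in established WT and 79.3, 91.9 and 147 CPM in established Fosl-2(Tg) mice. All established Fosl-2(Tg) mice were above all WT mice (0.85 ± 0.14, FDR 0.00929), and the stages differed by 1.09 ± 0.22 (FDR 0.00498). Ifnar1, the receptor chain with the most counts, was at 0.07 ± 0.08 early and -0.01 ± 0.08 later. Among 9 kinases and transcription factors, Irf2 was called in the established phenotype (0.30 ± 0.07, FDR 0.0288) and for the difference (0.54 ± 0.16, FDR 0.0372), without overlap between 21.1 to 27.1 CPM in WT and 29.2 to 33.99 CPM in Fosl-2(Tg) mice. Jak1, with the most counts of the list, was at 0.12 ± 0.08 and -0.07 ± 0.07.

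Of 11 inhibitors, 2 were called in the established phenotype, both higher: Socs3 (0.67 ± 0.18, FDR 0.0415), a suppressor of cytokine signalling, and Samhd1 (0.55 ± 0.11, FDR 0.0179), which depletes nucleotides. Samhd1 also differed between stages (0.70 ± 0.15, FDR 0.00852). Ptpn11, the inhibitor with the most counts, was at -0.01 ± 0.08 and -0.03 ± 0.06. Of 14 upstream sensors and adaptors, 4 were called in the established phenotype and for the difference. Tlr4 (0.89 ± 0.21, FDR 0.0276) and its adaptor Myd88 (0.43 ± 0.09, FDR 0.0201) were higher, and Tlr3 (-0.82 ± 0.19, FDR 0.0271) and Traf3 (-0.47 ± 0.12, FDR 0.0371) were lower in Fosl-2(Tg) mice, each without overlap. The differences between stages were 1.26 ± 0.29, 0.38 ± 0.11, -0.91 ± 0.22 and -0.61 ± 0.16 in that order. Calls among the upstream genes thus went in both directions.

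Further targets of interferon lay mostly on the same sides of WT as the 49 members. Of 30 other interferon targets, 23 were tested early and 21 of these were on the lower side (median -0.34, none called, 8 lower with an unadjusted p under 0.05 by edgeR). In the established phenotype 20 of 25 were on the higher side (median 0.22), and Ifitm1 (1.33 ± 0.22, FDR 0.01005) and Psmb8 (0.63 ± 0.15, FDR 0.0277) were called higher and Lgals9 (-0.39 ± 0.11, FDR 0.0486) lower. Ifitm1, which blocks viral entry, ran from 1.22 to 3.08 CPM in established WT and 3.88 to 6.63 CPM in Fosl-2(Tg) mice. The difference between stages was called and positive for 6 of 26: Ifitm1, Psmb8, Psmb9, Tap1, Cd274 and Trim21 (1.52 ± 0.30, 1.34 ± 0.30, 1.56 ± 0.41, 1.19 ± 0.34, 1.26 ± 0.36 and 0.78 ± 0.21). Psmb8, Psmb9 and Tap1 serve antigen processing. Ifitm2, with the most counts, was at -0.03 ± 0.08 and -0.18 ± 0.17.

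The Ifi200 family of DNA-binding proteins did so as well in early tendons. All 7 tested were on the lower side (median -0.63), with Ifi203 at -1.04 ± 0.19 (FDR 0.0687) and Mndal at -0.88 ± 0.16 (FDR 0.0696), and 3 (Ifi204, Ifi207 and Mndal) had a called difference of 1.39 ± 0.33, 1.52 ± 0.35 and 0.81 ± 0.22. These genes share sequence, so that reads may be divided between them. Of 8 MHC class I genes tested, Tap2 (0.37 ± 0.10, FDR 0.0379) was called in established mice, and Tap2 and H2-Q4 for the difference (1.05 ± 0.33 and 1.03 ± 0.29). H2-K1, the gene whose promoter drives the transgene, had 46.95, 59.6 and 68.2 CPM in early WT and 43.8, 54.8 and 65.5 CPM in early Fosl-2(Tg) mice (-0.13 ± 0.10, FDR 0.885) and 43.3, 47.03 and 53.2 CPM in established WT and 37.8, 47.3 and 54.6 CPM in established Fosl-2(Tg) mice (0.03 ± 0.08, FDR 0.855). H2-D1, with the most counts of the list, was at -0.23 ± 0.19 and -0.16 ± 0.13.

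**Figure D5:**
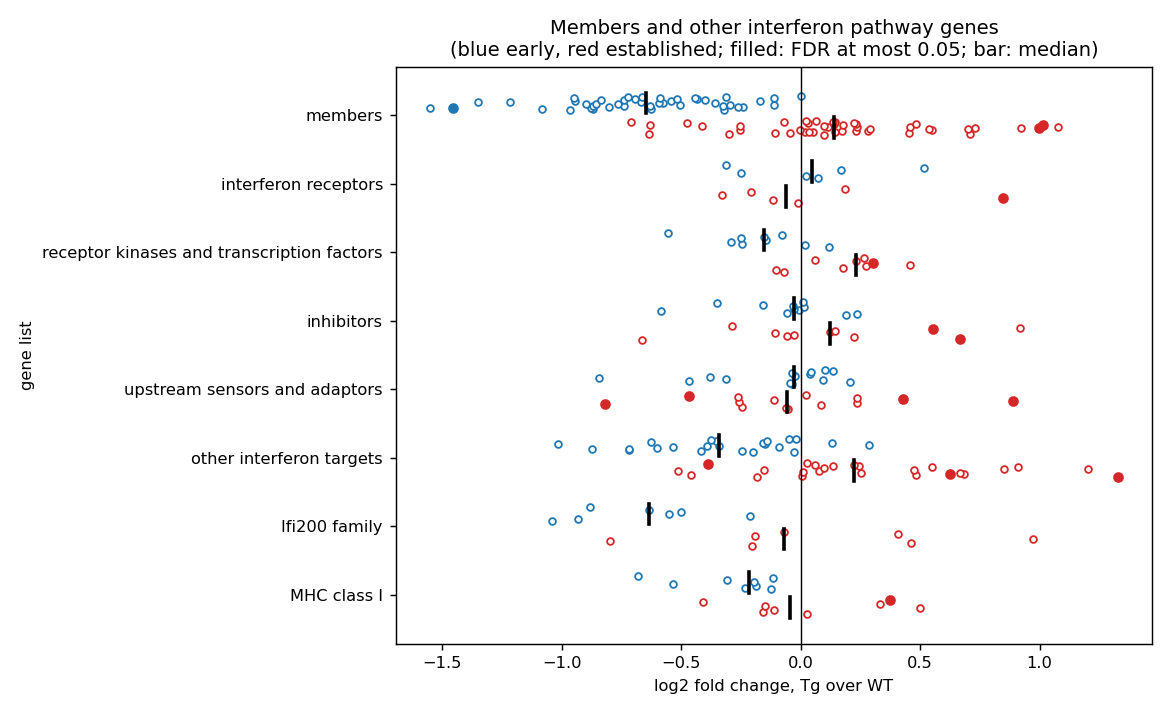
Log2 fold change of Fosl-2(Tg) over WT for the members and for 7 lists of other interferon pathway genes, early in blue and established in red, with filled points at an FDR of at most 0.05 and a bar at the median. The early medians are lowest for the members and the Ifi200 family, and receptors, inhibitors and upstream genes lie around 0 at both stages.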

How the data were processed

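RNA-sequencing of tail tendon had been done on 28 mice, 1 library each. The authors aligned reads to GRCm39 with STAR, used featureCounts with GENCODE M26 annotation to count reads per gene, and deposited these as raw counts. Their versions, and the strand and multimapping settings of the counting, are not given in the sources used here, so reads of overlapping or near-identical genes may be assigned to either. Library totals ran from 9645598 to 66894396, with a median of 18685760, and the lowest chi-square per degree of freedom between libraries of a group was 7.02, so that no pair looked like 1 library given 2 times. Identifiers were given the gene names of a later GENCODE release, and 25505 of 25719 were named. RefSeq synonyms were used only for listed genes not found by name.

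From the counts, edgeR 4.0.16 (R 4.3.3) was run with TMM scaling, filterByExpr (minimum count 10, minimum total 15), the quasi-likelihood test and Benjamini-Hochberg adjustment over all genes tested. Each stage had its own fit, and 1 fit of 4 groups over all libraries gave the difference between stages and the comparisons of stages within a genotype. SEs are the fold change divided by the square root of the F statistic. The study used DESeq2, which was an alternative here (1.42.0). The code was tested on simulated data. P-values measure the spread between these mice.

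The members and lists were chosen with earlier results of these data known. Full values were given for members called in a comparison of genotypes or for the difference, the member with the most counts of each role, and members without overlap between genotypes. Other alternatives were RLE scaling, no filter on low counts, a block for the replicate number, a single fit of all libraries, no males in the established groups and each mouse left out. Scaling by library totals was added after seeing the data. Early mice with the same replicate number deviated together in all 7 pairs (r from 0.14 to 0.40 over genes), though no mouse correlated best with its own number. The block result was therefore given beside the early result as an alternative, and the main fits had no block. In the established groups 4 of 6 pairs were over 0.1 (r from -0.23 to 0.69), and 2 mice correlated best with their own number.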

Additional observations from a re-analysis of the deposited data

Results flagged for a closer look

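The genotype effect differed between the early and the established phenotype for 17 members by edgeR's test of the difference (FDR of at most 0.05), each more positive in the established phenotype. On the log2 scale the differences were 2.23 (Mx1), 1.86 (Gbp2), 1.85 (Slfn2), 1.68 (Gbp3), 1.54 (Oas1a), 1.44 (Oasl2), 1.43 (Mx2), 1.41 (Oas2), 1.3 (Gbp7), 1.21 (Slfn8), 1.11 (Trim30a), 0.97 (Dhx58), 0.92 (Parp14), 0.80 (Ifih1), 0.74 (Dtx3l), 0.58 (Adar) and 0.58 (Ifi35).

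A mouse stood apart from the rest of its group, by Dixon's criterion, in 9 of 100 groups of values checked. For independent, normally distributed values the criterion gives about 1 in 20. The values here came from genes measured in the same mice, so the count is a description. The mean log2 CPM over the members was 3.12 in established Fosl-2(Tg) replicate 1, and Stat2 was at 50.8 CPM in the same mouse. Ifit2 was at 85.1 CPM in established Fosl-2(Tg) replicate 5, the male. Oas1a was at 1.14 CPM in established Fosl-2(Tg) replicate 7. In established WT mice, Oas2 was at 2.98 CPM in replicate 1, Mx2 at 2.29 CPM in replicate 4 and Slfn5 at 21.2 CPM in replicate 6. In early Fosl-2(Tg) mice, Trim30a was at 3.78 CPM in replicate 2 and Parp14 at 18.5 CPM in replicate 1.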

How the results depend on the processing

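The members' medians between genotypes and for the difference kept their direction in the alternatives run here, and so did the fold changes called in these comparisons. The members' medians between stages within a genotype were not checked with library totals. Between the stages in Fosl-2(Tg) mice, Eif2ak2, called lower with TMM, was called higher with library totals. In early tendons the number of members called was 5 by DESeq2 (Oasl2, Oas2, Trim30a, Slfn2 and Rtp4), 2 with a replicate block and 2 with all libraries in 1 fit, and ran from 1 to 3 with a mouse left out (3 without WT replicate 4). Oas2 was called in all 21 alternatives. In established tendons it was 7 by DESeq2, 25 with library totals in place of TMM (the members' median was then 0.46, beside 0.33 over all genes), 1 with a replicate block, 4 with all libraries in 1 fit and 1 without the males (Lgals3bp, lower). With a mouse left out it ran from 0 to 4: 0 without Fosl-2(Tg) replicate 1 or WT replicate 1, 2, 3 or 5, 1 without WT replicate 4 or 6 or Fosl-2(Tg) replicate 6, and 4 without Fosl-2(Tg) replicate 7. In the established groups 4 of 6 same-numbered pairs correlated above 0.1, and the 1 member called there with the block was Lgals3bp. For the difference between stages, 37 members were called with library totals (median 1.34, beside 0.53 over all genes), 24 by DESeq2, 23 with the replicate block, 15 without a filter, 12 without the males and 13 to 22 with a mouse left out. Of the 23 with the block, Lgals3bp was called in the opposite direction, more negative in the established phenotype (-0.86, FDR 0.0215). In WT mice, DESeq2 called 6 members between the stages. The number of all genes called under each alternative is not given here, so these counts describe the settings and not the members alone. The causes were not tested.

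Of the 17 members called for the difference, 11 were called in all 34 alternatives. Ifih1, Trim30a, Dtx3l, Ifi35 and Adar lost the call without the males, Dhx58, Adar and Ifi35 without a filter and Adar with the replicate block. Dtx3l also lost it without early WT replicate 2 or 3 or established WT replicate 2 or 5. Ifi35 also lost it without early WT replicate 1, 2, 3 or 7, established WT replicate 1, 2 or 5 or established Fosl-2(Tg) replicate 2 or 5. Dhx58 kept it only without early WT replicate 4, 5 or 6, early Fosl-2(Tg) replicate 1, 2 or 3, established WT replicate 3 or established Fosl-2(Tg) replicate 5, 6 or 7, and Adar only without early WT replicate 4, 5 or 6, early Fosl-2(Tg) replicate 1, established WT replicate 4 or established Fosl-2(Tg) replicate 3, 4, 5, 6 or 7, among the fits that left out a mouse. Isg15, Oas3, Oasl1 and Ifi44 had too few counts for the main test, and in the early phenotype so did Mx1, so that depth limits what can be said of them.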
